A study of Mus musculus with 9 samples.

Results

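Autophagy genes were followed through birth in hearts of wild-type C57BL/6J mice. The 43 genes were taken by symbol from the 48820 genes of the deposited expression table, by their known place in the pathway (initiation, membrane supply, conjugation, cargo receptors, mitophagy, transcriptional control and lysosomal membrane). These genes and the further lists below were chosen with earlier results of these data known, so their counts are descriptive. RNA-seq of untreated hearts gave 9 libraries, 3 biological replicates each at embryonic day 18.5 (E18.5d) and at postnatal days 1 (P1d) and 7 (P7d), and the labels give every heart as male. Whether a replicate is 1 animal or a pool is not given in the sources used here. The p-values set differences between stages against the spread of replicates within stages, which may not be that between animals. Expression is given as FPKM, the fragments per kilobase of transcript scaled to the number of mapped fragments, which takes the length of a gene into account, so that the levels of different genes can be set side by side.

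Autophagy is the route by which a cell encloses its own cytoplasm or organelles in a double membrane, the autophagosome, and delivers them to the lysosome for breakdown. The ULK1 kinase complex starts the process, a class III phosphatidylinositol 3-kinase marks the membrane, ATG9 and ATG2 supply lipid, and conjugation systems attach proteins of the ATG8 family (LC3 and GABARAP) to it, to which cargo receptors bind. In the mouse, the placental supply of nutrients ends at birth, and autophagy in the neonatal heart is known to rise for a short time after birth. Transcript levels do not measure the flux through the pathway.

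The depth, estimated from the steps between low FPKM values, was 25500000 to 45750000 fragments per heart, so that 3 fragments on a gene of 1 kb are worth 0.0656 to 0.118 FPKM. All 43 members were among the 13618 genes tested, those whose mean reached 1 FPKM. *Xist*, the RNA that silences an X chromosome, ranged from 58.0 to 97.0 FPKM in 4 of the 9 hearts, with 4 Y-linked genes summing to 0, although the labels give males. These were E18.5d replicates 1 and 3 and P7d replicates 2 and 3, and none was from P1d, so that each comparison with P1d sets a mixed stage against one without *Xist*. P1d replicate 2 stood apart, with the largest FPKM sum (1.79e+06 against 1.35e+06 to 1.52e+06 in the others). In that heart 5 small RNAs made up 62.3% of the sum, against 53.3 to 59.3% in the others. The defining markers of cardiomyocytes were high in every heart and summed to 19443 to 20242 FPKM at E18.5d, 23589 to 26138 at P1d and 26860 to 28065 at P7d. Single markers differed in direction. *Myh6* was at 3189 to 3260 FPKM at E18.5d and 7980 to 8564 at P7d, and *Mb* at 1598 to 1768 and 4818 to 4953. *Tnnt2* fell instead, from 4278 to 4510 FPKM at E18.5d to 2778 to 3198 at P7d. Lung marker genes (*Sftpc*, *Sftpb*, *Scgb1a1* and *Scgb3a2*) summed to 55.9 to 221 FPKM in E18.5d replicates 1 and 2 and P1d replicate 1. In the other hearts they summed to at most 1.44 FPKM. The larger sums were almost all *Scgb3a2* (53.2 to 179 FPKM) and *Scgb1a1* (2.25 to 42.1 FPKM), while *Sftpc* and *Sftpb* were at most 0.63 FPKM in every heart. These are whole hearts of mixed cells, in which fewer cells of a type and less RNA per cell cannot be told apart.

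Of the 43 members, 18 (41.9%) were higher at P1d than at E18.5d and 25 passed in neither direction, by limma with Benjamini-Hochberg adjustment over all genes tested, where 18.4% of all genes were higher. None was lower, where 27.6% of all genes were lower, and at an unadjusted p under 0.05 from limma the lower members numbered 1 (*Bnip3*), where 31.7% of all genes were lower. The median log2 change of the members was 0.22, beside -0.06 for all genes tested. From P1d to P7d, 15 members (34.9%) were lower, where 28.6% of all genes were, and 4 (9.30%) were higher, where 15.5% were. The members' median was -0.19 beside -0.09 for all genes. The comparisons share the P1d hearts, so a high value at P1d enters both. At P7d, 9 members were higher than at E18.5d (12.5% of all genes) and 4 lower (36.9% of all genes), with a median of 0.06 beside -0.17. In each of the 18, 13 and 19 calls so counted for P1d against E18.5d, P7d against E18.5d and P7d against P1d, the hearts of one stage all lay above those of the other. The same share among all called genes is not given here, so this describes the values behind the calls and not a trait of the members. In all, 25 members passed the threshold in at least 1 comparison and 18 in none.

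**Figure D1:**
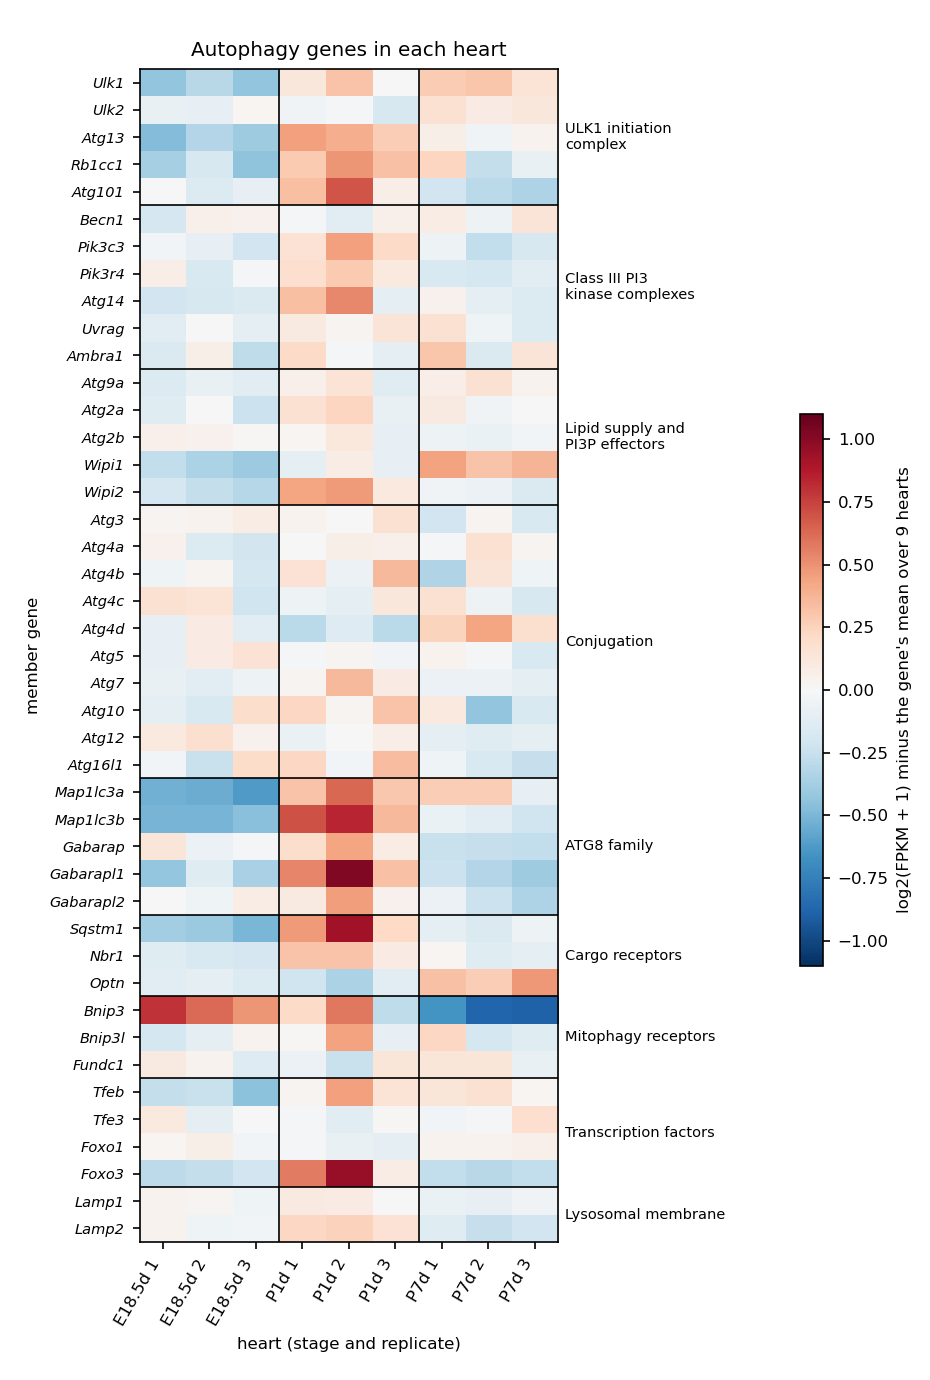
Heatmap of the 43 autophagy genes (rows, grouped by role) in the 9 hearts (columns, by stage and replicate), as log2(FPKM + 1) minus the mean of the gene over all hearts. P1d columns are red for *Map1lc3b*, *Gabarapl1*, *Sqstm1* and *Foxo3*, most deeply in P1d replicate 2, *Bnip3* runs from red at E18.5d to blue at P7d, and most conjugation genes stay pale.

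**Figure D2:**
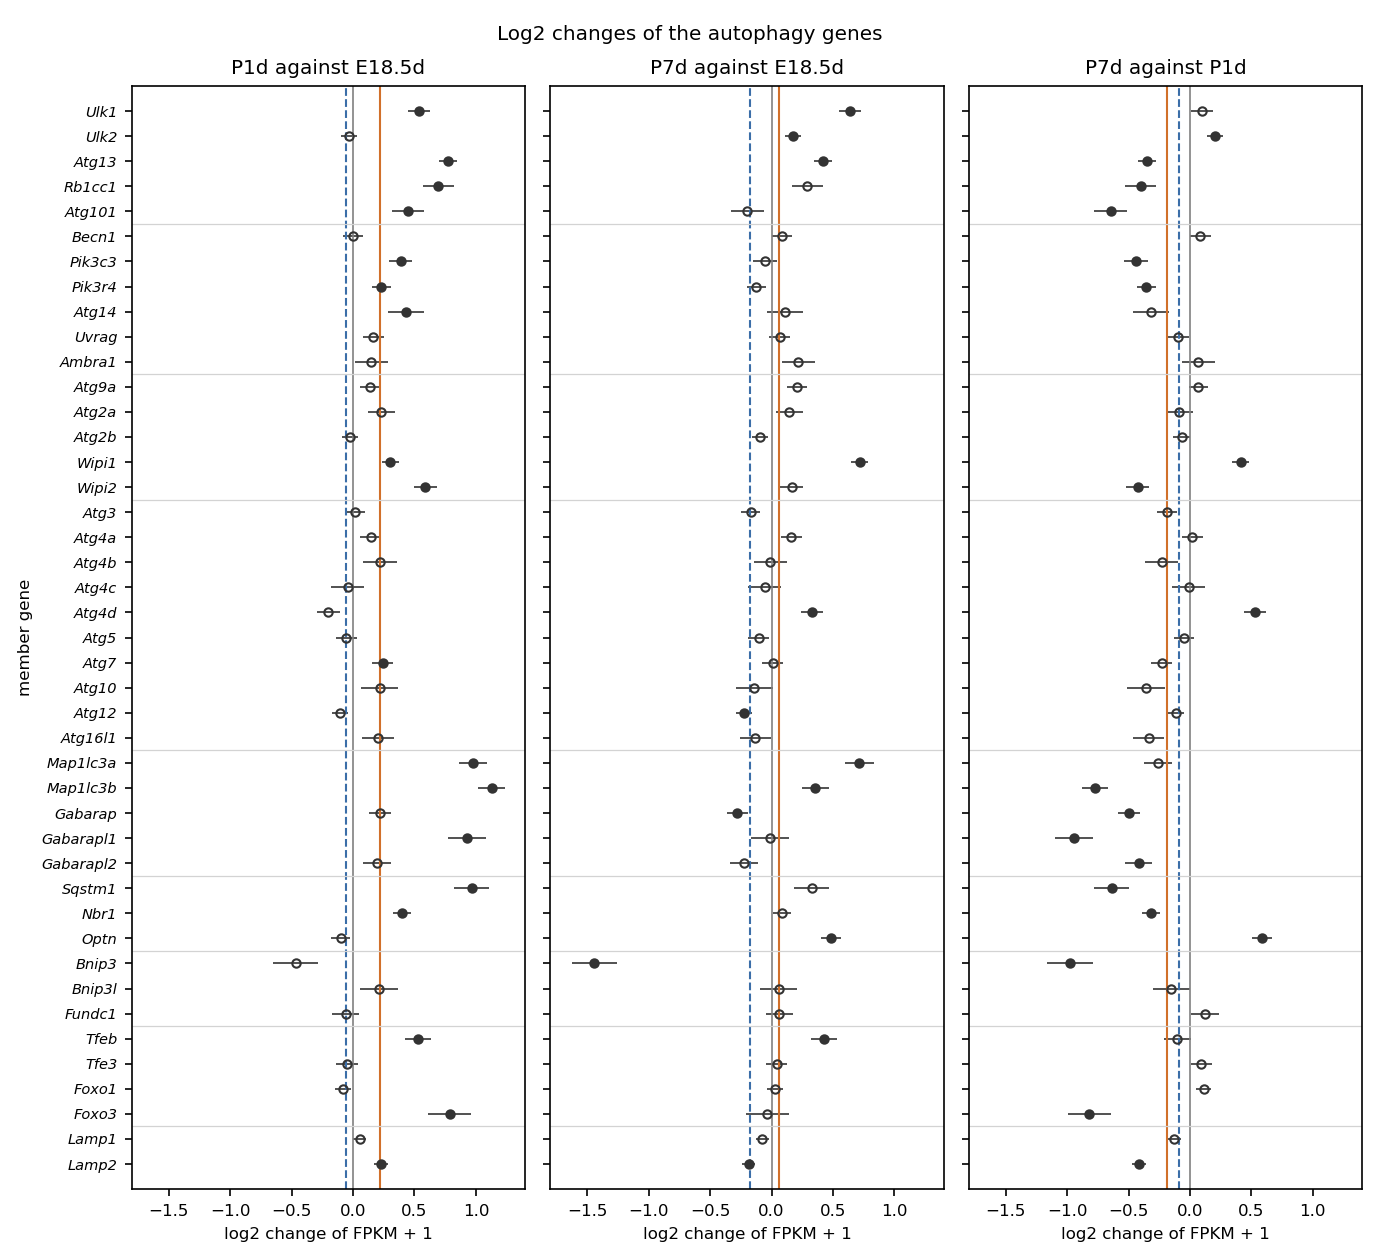
Log2 change of FPKM + 1 for each member (points, with the limma standard error as bars) in 3 comparisons, filled where the adjusted p is under 0.05. The orange line is the median of the 43 members (0.22, 0.06 and -0.19 from left to right) and the blue dashed line the median of all genes tested (-0.06, -0.17 and -0.09).

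The scale of the FPKM columns moves these counts. All genes together shifted by -0.17 on the log2 scale at P7d against E18.5d as deposited, and rescaling by median of ratios brought this shift to -0.02 and the members' median to 0.23. On that scale 18 members were higher at P7d and 1 (*Bnip3*) lower, where 21.3% and 20.9% of all genes were, and the 18 include each of the 9 higher as deposited. *Becn1*, *Nbr1*, *Rb1cc1*, *Sqstm1*, *Wipi2*, *Ambra1*, *Atg9a*, *Atg4a* and *Foxo1* were the 9 gained, while *Atg12*, *Gabarap* and *Lamp2* were no longer called lower. At P1d against E18.5d, median of ratios left 20 members higher and 0 lower, where all genes divided into 23.2% higher and 22.9% lower. Equal column sums follow the 5 small RNAs, which made up 53.3 to 62.3% of each column, the most in P1d replicate 2. On this scale 10 members were higher and 2 lower at P1d (8.63% and 34.5% of all genes). The 10 were *Ulk1*, *Atg13*, *Rb1cc1*, *Wipi2*, *Map1lc3a*, *Map1lc3b*, *Gabarapl1*, *Sqstm1*, *Tfeb* and *Foxo3*, and the 2 were *Bnip3* and *Atg4d*. In the P7d against P1d comparison the lower members numbered 14 with median of ratios (19.8% of all genes) and 10 with equal column sums (12.7%), where the falls of *Atg13* (-0.23), *Pik3r4* (-0.23), *Wipi2* (-0.30), *Nbr1* (-0.19) and *Rb1cc1* (-0.28) did not pass. The members' median kept its sign on each of these scales.

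**Figure D3:**
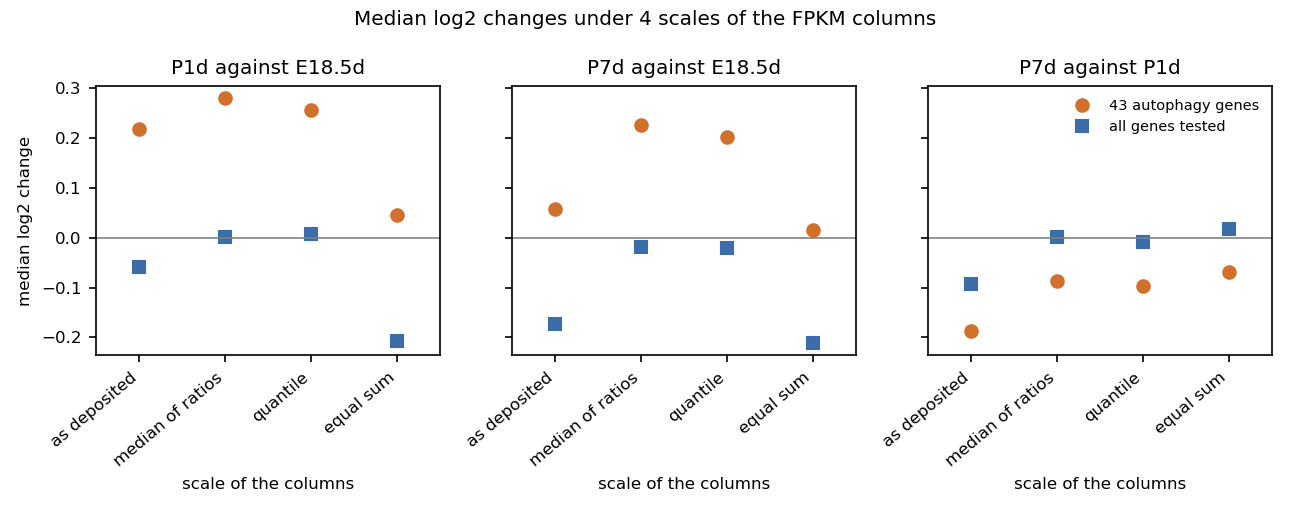
Median log2 change of the 43 autophagy genes (circles) and of all genes tested (squares) under 4 scales of the FPKM columns, in 3 comparisons. The members' median lay above that of all genes in both comparisons with E18.5d, on each scale, and below it at P7d against P1d.

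With *Xist* as a covariate, 13 members were higher at P1d than at E18.5d (11.8% of all genes), and the calls of *Atg101*, *Atg14*, *Atg7*, *Lamp2* and *Pik3c3* were lost. With this covariate 9 members were higher and 4 lower at P7d against E18.5d (11.98% and 35.4% of all genes), where *Ulk2* was lost and *Rb1cc1* gained. At P7d against P1d, 3 were higher and 12 lower (10.8% and 17.9% of all genes), and the calls of *Ulk2*, *Gabarapl2*, *Nbr1* and *Rb1cc1* were lost. Without the 4 hearts with *Xist*, E18.5d and P7d keep 1 heart each, which is assumed to vary like the P1d hearts. *Map1lc3a* (log2 change 0.96) and *Map1lc3b* (1.14) then remained higher at P1d, where 1.76% of all genes did, and no member passed in the other comparisons, where 0.683% of all genes were higher and 0.742% lower (P7d against E18.5d) and 0.551% higher and 0.764% lower (P7d against P1d). At an unadjusted p under 0.05 from limma, 3 members were higher and 1 lower in the first of these (6.49% and 18.2% of all genes) and 3 higher and 6 lower in the second (9.38% and 16.2%). The median log2 change of the members was then 0.25 at P1d, 0.11 at P7d against E18.5d and -0.13 at P7d against P1d. Of the members, 4 (*Atg4a*, *Fundc1*, *Tfe3* and *Lamp2*) lie on the X chromosome. P1d replicate 2 was the highest P1d heart for 27 of the 43 members (62.8%, against 40.5% of all genes tested), and P1d replicate 3 the lowest for 26 (60.5%, against 36.7%). Without P1d replicate 2, 15 members were higher at P1d and 1 (*Bnip3*) was lower (16.1% and 25.8% of all genes). Without P1d replicate 3, 21 were higher (19.4% of all genes). Erythroid marker genes summed to 24733 FPKM in P1d replicate 2 against 15705 and 12738 in the other P1d hearts, and macrophage markers to 126 against 104 and 84.3 FPKM. Liver markers summed to 27.6 against 1.24 and 2.76 FPKM, and fibroblast markers to 979 against 701 and 697 FPKM. Cardiomyocyte (23589 FPKM) and smooth muscle markers (693 FPKM) were instead lowest in that P1d heart. The part of these cells in the members' values was not tested.

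In the ULK1 initiation complex 4 of 5 members (80%) were higher at P1d, where 18.4% of all genes were. The median log2 change of the group was 0.54, beside -0.06 for all genes tested. *Ulk1* (chr5:110784488-110810097 of GRCm38, minus strand), the kinase that starts autophagy, was at 10.2, 11.2 and 10.2 FPKM in the E18.5d hearts, 15.6, 17.9 and 14.1 FPKM at P1d and 17.4, 17.7 and 15.9 FPKM at P7d. All 6 postnatal hearts lay above the 3 fetal ones, and the postnatal stages overlapped. Against E18.5d, *Ulk1* was higher by 0.54 at P1d on the log2 scale (limma, standard error 0.09 and adjusted p = 0.00104) and by 0.64 at P7d (adjusted p = 0.000364). Its relative *Ulk2* was at 13.8, 13.8 and 14.9 FPKM at E18.5d, 14.3, 14.4 and 12.9 FPKM at P1d and 16.6, 15.7 and 16.1 FPKM at P7d. *Ulk2* was thus higher at P7d, by 0.18 against E18.5d (limma, adjusted p = 0.0461) and 0.21 against P1d (adjusted p = 0.0281). The first call was lost without any 1 of the E18.5d replicates 1 and 2, P1d replicate 1 and the P7d hearts (log2 change 0.16 to 0.20), and the second without P1d replicate 3 (0.16), P7d replicate 1 (0.19) or P7d replicate 3 (0.21). The first was also lost without a filter, without a trend, with equal column sums (0.14), with a replicate block and with *Xist* as a covariate, and the second with P1d and P7d fitted alone, with the block and with that covariate. The ratio of *Ulk1* to *Ulk2* within a heart was 0.685 to 0.817 at E18.5d, 1.09 to 1.24 at P1d and 0.983 to 1.13 at P7d.

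*Atg13* and *Rb1cc1* (FIP200), scaffold subunits of the ULK1 complex, rose together with it at P1d. *Atg13* was at 7.70 ± 0.472 FPKM at E18.5d, 13.8 ± 0.930 at P1d, then 10.6 ± 0.439 at P7d (SD, n = 3), with the 3 stages apart from each other. *Atg13* rose by 0.77 at P1d (limma, standard error 0.07 and adjusted p = 4.51e-05), and at P7d it was still 0.42 above E18.5d (adjusted p = 0.00124). *Rb1cc1* was at 15.7, 18.1 and 14.9 FPKM at E18.5d, 25.4, 29.3 and 25.9 FPKM at P1d and 24.5, 17.0 and 19.4 FPKM at P7d. Every P1d heart was above every other heart, with a log2 change of 0.69 (limma, adjusted p = 0.00176). The fall of *Rb1cc1* from P1d to P7d (-0.40, limma, adjusted p = 0.0272) was lost without P1d replicate 2 (-0.34), P7d replicate 2 (-0.29) or P7d replicate 3 (-0.38). It was also lost without a filter, with median of ratios (-0.30), quantile normalization (-0.29) and equal column sums (-0.28), and with *Xist* as a covariate (-0.19). Without P7d replicate 2 *Rb1cc1* was called higher at P7d against E18.5d (0.41), as it was with median of ratios (0.46), quantile normalization (0.44) and that covariate (0.29). *Atg101*, which stabilizes ATG13, was at 17.1, 15.4 and 16.1 FPKM at E18.5d, 21.9, 28.5 and 18.2 FPKM at P1d and 14.7, 13.9 and 13.4 FPKM at P7d. The P1d hearts were the highest here too. *Atg101* rose by 0.45 at P1d (limma, adjusted p = 0.0200), which did not pass when E18.5d replicate 2 (0.41) or 3 (0.44) was left out, and fell by 0.65 from P1d to P7d (limma, adjusted p = 0.00377).

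In the class III phosphatidylinositol 3-kinase complexes, 3 of 6 members (50%) were higher at P1d, where 18.4% of all genes were. The median log2 change of the group was 0.20, beside -0.06 for all genes tested. *Becn1* (Beclin 1), the scaffold of these complexes, was among the members with the smallest changes, at 39.6, 47.1 and 46.8 FPKM at E18.5d, 44.8, 41.5 and 47.0 FPKM at P1d and 47.9, 43.6 and 50.1 FPKM at P7d. The hearts of all 3 stages overlapped and no comparison passed (limma, adjusted p from 0.430 to 0.997). Of its annotated exon bases 43.9% lie under exons of *Cntd1* on the other strand, which was at 0.249 FPKM, and the use of strand in counting is not given in the sources used here. *Pik3c3* (VPS34), the catalytic subunit, was at 8.94 ± 0.630 FPKM at E18.5d, 12.04 ± 1.45 at P1d, then 8.59 ± 0.723 at P7d (SD, n = 3). It rose by 0.39 at P1d (limma, adjusted p = 0.00903) and fell by 0.44 to P7d (adjusted p = 0.00521). *Pik3r4* (VPS15), its regulatory subunit, went from 13.5 ± 1.22 to 16.0 ± 1.10 and 12.3 ± 0.384 FPKM, with a log2 change of 0.23 at P1d (limma, adjusted p = 0.0370) and -0.35 from P1d to P7d (adjusted p = 0.00575).

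*Atg14*, which directs the kinase to the sites where autophagosomes form, was at 2.95, 3.06 and 3.10 FPKM at E18.5d, 4.75, 5.61 and 3.24 FPKM at P1d and 3.72, 3.24 and 3.13 FPKM at P7d. P1d replicate 3 lay among the P7d hearts. The log2 change at P1d was 0.43 (limma, adjusted p = 0.0365). The P1d calls of *Pik3r4* and *Atg14* depended on single hearts. That of *Pik3r4* was lost when any 1 was left out of E18.5d replicates 2 (0.16) and 3 (0.24), P1d replicates 1 (0.24) and 2 (0.18) and the P7d hearts (0.23), and that of *Atg14* when any E18.5d heart (0.42 to 0.44), P1d replicate 1 (0.39) or 2 (0.29) or P7d replicate 2 (0.43) was. Both were also lost without a filter, with equal column sums (0.068 and 0.29) and with E18.5d and P1d fitted alone, that of *Pik3r4* with a replicate block and that of *Atg14* with *Xist* as a covariate (0.37). *Atg14* was called lower from P1d to P7d without P1d replicate 3 (-0.50). *Uvrag* and *Ambra1*, partners of Beclin 1 in endosome maturation and in the control of initiation, passed in no comparison and had log2 changes of 0.17 and 0.15 at P1d.

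Among the genes of lipid supply and of the proteins that bind phosphatidylinositol 3-phosphate, the relatives *Wipi1* and *Wipi2* both rose at P1d and then parted. *Wipi1* was at 19.3, 18.3 and 17.5 FPKM at E18.5d, 21.8, 24.9 and 22.0 FPKM at P1d and 32.2, 29.5 and 30.7 FPKM at P7d. The 3 stages did not overlap, and the levels followed the order of age. The log2 change of *Wipi1* was 0.30 at P1d (limma, adjusted p = 0.00641), 0.72 at P7d against E18.5d (standard error 0.07, adjusted p = 4.68e-05) and 0.41 from P1d to P7d (adjusted p = 0.00137). *Wipi2*, which recruits the ATG16L1 complex, was instead highest at P1d, at 13.9 ± 0.689, 21.6 ± 2.97 and 15.7 ± 0.691 FPKM by stage (SD, n = 3). It rose by 0.59 at P1d (limma, adjusted p = 0.000946) and fell by 0.43 to P7d (adjusted p = 0.00601). The ratio of *Wipi1* to *Wipi2* within a heart was 1.318 to 1.321 at E18.5d, 0.948 to 1.21 at P1d and 1.85 to 2.06 at P7d. *Atg9a*, the transmembrane scramblase carried by vesicles, and the lipid transfer proteins *Atg2a* and *Atg2b* passed in no comparison. *Atg9a* was at 14.4, 16.0 and 16.7 FPKM on average by stage, and its difference of 0.21 at P7d against E18.5d (limma, adjusted p = 0.0553) passed without P1d replicate 2 or 3 (0.21). Without P1d replicate 3, *Atg9a* (0.22) and *Atg2a* (0.33) were called higher at P1d. *Atg2a*, listed under 2 identifiers with the same 9 values and counted once, was the lowest member at E18.5d with 2.71 ± 0.291 FPKM and at P7d with 3.10 ± 0.203 FPKM.

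**Figure D4:**
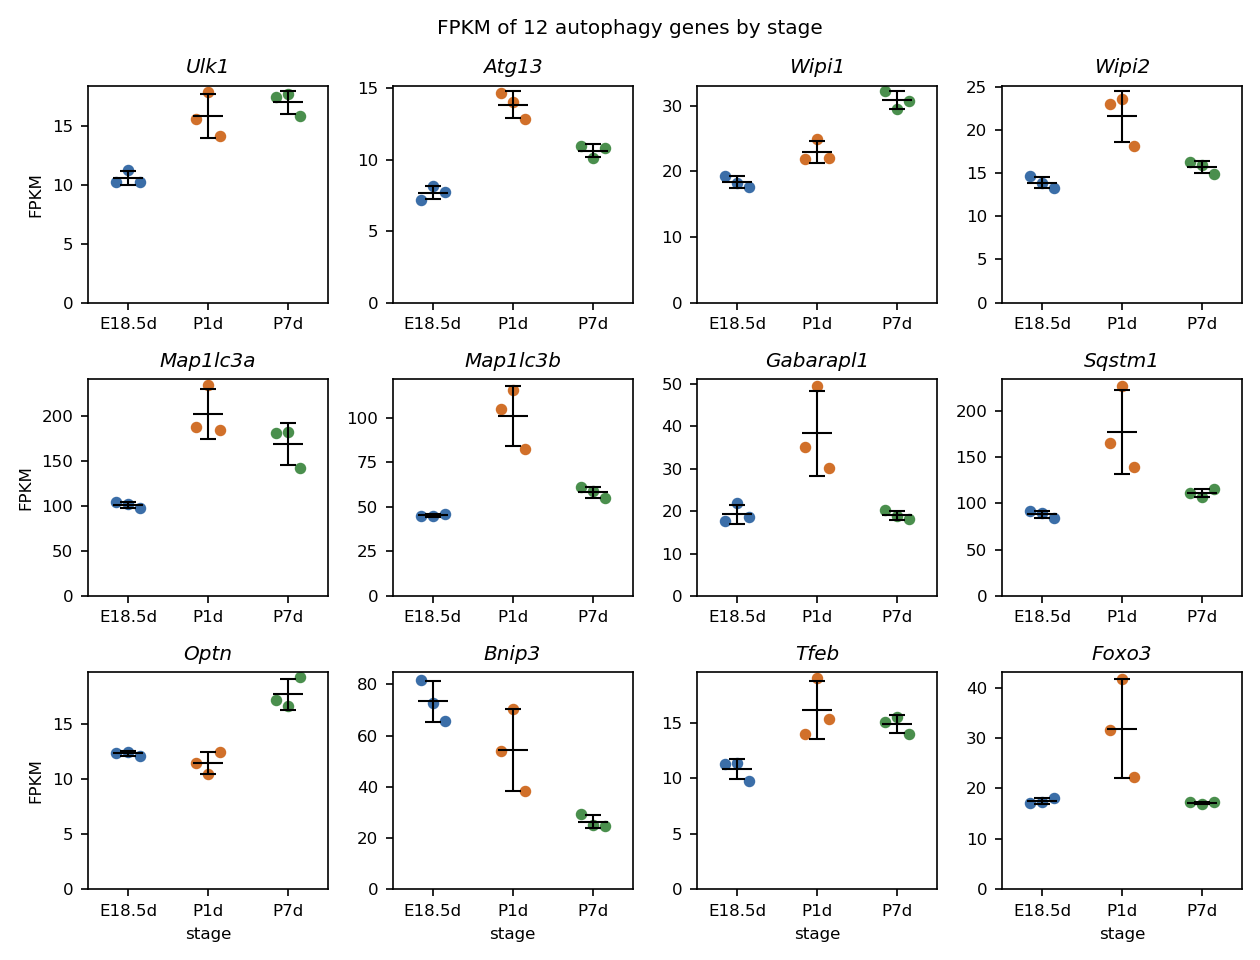
FPKM of 12 autophagy genes in each heart (points, 3 per stage), with the mean and SD over the 3 hearts of a stage in black and the axes starting at 0. *Map1lc3b*, *Gabarapl1*, *Sqstm1* and *Foxo3* are highest at P1d, *Wipi1* and *Optn* at P7d and *Bnip3* at E18.5d.

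The conjugation genes build the ATG12-ATG5-ATG16L1 ligase and process and lipidate ATG8 proteins. Of these 10 genes, 1 was higher and 0 lower at P1d, where 18.4% and 27.6% of all genes were. At P7d against E18.5d 1 was higher and 1 lower (12.5% and 36.9% of all genes). From P1d to P7d 1 was higher and 0 lower (15.5% and 28.6% of all genes). The medians were 0.08, -0.08 and -0.15, beside -0.06, -0.17 and -0.09 for all genes tested. *Atg7*, the E1-like enzyme, was at 8.48, 8.21 and 8.66 FPKM at E18.5d, 9.24, 11.8 and 9.65 FPKM at P1d and 8.61, 8.61 and 8.35 FPKM at P7d. P1d replicate 2 stood above the rest. The log2 change of *Atg7* at P1d was 0.24 (limma, adjusted p = 0.0434), and this call was lost without any E18.5d (0.22 to 0.26) or P7d heart (0.24) or P1d replicate 2 (0.14), without a filter, with E18.5d and P1d fitted alone, with equal column sums (0.085), with a replicate block and with *Xist* as a covariate (0.25), while *Atg7* was called lower from P1d to P7d without P1d replicate 1 (-0.29). *Atg12*, the ubiquitin-like protein joined to ATG5, was at 12.8, 13.4 and 12.2 FPKM at E18.5d, 11.1, 11.8 and 12.4 FPKM at P1d and 10.9, 10.6 and 10.9 FPKM at P7d. It fell by 0.22 from E18.5d to P7d (limma, adjusted p = 0.0173), not without E18.5d replicate 2 (-0.19) or P7d replicate 2 (-0.21) and not with median of ratios (-0.05) or equal column sums (-0.26).

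*Atg4d*, a protease that trims ATG8 proteins, differed from its relatives. It was at 11.6, 13.2 and 11.3 FPKM at E18.5d, 9.92, 11.2 and 9.91 FPKM at P1d and 14.9, 17.1 and 14.1 FPKM at P7d. The P7d hearts were the highest and the P1d hearts the lowest. *Atg4d* rose by 0.53 from P1d to P7d (standard error 0.09, limma, adjusted p = 0.00152) and by 0.33 from E18.5d to P7d (adjusted p = 0.0142), the second not without E18.5d replicate 3 (0.29) or P7d replicate 2 (0.25). Exons of *Kri1* (9.39 FPKM) on the other strand cover 19.3% of its exon bases. *Atg4b*, the main protease of the family by known activity, was at 19.0 ± 1.55, 22.5 ± 3.38 and 19.0 ± 3.27 FPKM by stage (SD, n = 3), and the ratio of *Atg4d* to *Atg4b* was 0.599 to 0.649 at E18.5d, 0.383 to 0.584 at P1d and 0.734 to 0.9495 at P7d. *Atg3*, *Atg4a*, *Atg4b*, *Atg4c*, *Atg5*, *Atg10* and *Atg16l1* passed in no comparison. Their log2 changes ran from -0.05 (*Atg5*) to 0.22 (*Atg4b* and *Atg10*) at P1d and from -0.17 (*Atg3*) to 0.16 (*Atg4a*) at P7d against E18.5d. Some of these passed when 1 heart was left out. *Atg3* was lower at P7d without P7d replicate 2 (-0.24 against E18.5d and -0.26 against P1d), *Atg4a* higher at P7d without E18.5d replicate 1 (0.24), *Atg10* lower from P1d to P7d without P7d replicate 1 (-0.49) and *Atg16l1* lower there without replicate 2 or 3 of E18.5d (-0.34) or replicate 2 of P1d (-0.44).

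Genes of the ATG8 family held the largest change of any member at P1d. Of the 5 members, 3 (60%) were higher at P1d, where 18.4% of all genes were, with a group median of 0.93 beside -0.06. From P1d to P7d 4 (80%) fell, where 28.6% of all genes did, with a median of -0.50 beside -0.09. *Map1lc3b* (LC3B, chr8:121590361-121598760 of GRCm38, plus strand), whose lipidated protein marks autophagosomes, was at 44.6, 44.6 and 46.2 FPKM at E18.5d, 105, 115 and 82.3 FPKM at P1d and 60.9, 58.7 and 54.9 FPKM at P7d. The 3 stages did not overlap, and the P1d mean was 2.23 times that of E18.5d. On the log2 scale it rose by 1.13 at P1d (limma, standard error 0.11 and adjusted p = 4.66e-05), the largest rise of the 43 members, and fell by 0.77 from P1d to P7d (adjusted p = 0.000487). At P7d *Map1lc3b* was still 0.36 above E18.5d (limma, adjusted p = 0.0205), which did not pass when replicate 1 (0.35) or 2 (0.35) of E18.5d or replicate 1 (0.32) or 2 (0.35) of P7d was left out. *Map1lc3a* (LC3A, chr2:155276297-155278073, plus strand) was at 104, 103 and 97.9 FPKM at E18.5d, 188, 235 and 185 FPKM at P1d and 182, 183 and 142 FPKM at P7d. All postnatal hearts were above the fetal ones. *Map1lc3a* rose by 0.98 at P1d (limma, standard error 0.12 and adjusted p = 0.000156) and stood 0.72 above E18.5d at P7d (adjusted p = 0.000834), and the change from P1d to P7d (-0.26, adjusted p = 0.0917) did not pass.

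The GABARAP branch behaved differently gene by gene. *Gabarapl1* (chr6:129533160-129542346, plus strand) was at 17.6, 21.9 and 18.5 FPKM at E18.5d, 35.2, 49.5 and 30.3 FPKM at P1d and 20.2, 18.9 and 18.1 FPKM at P7d. Its P1d hearts lay above all others, and E18.5d and P7d overlapped. *Gabarapl1* rose by 0.93 at P1d (limma, standard error 0.16 and adjusted p = 0.00115) and fell by 0.94 to P7d (adjusted p = 0.00122). Of its exon bases 28.3% are shared with *1700101I11Rik* on the other strand (0.622 FPKM). *Gabarap*, the most abundant member of this branch, was at 177, 154 and 159 FPKM at E18.5d, 184, 217 and 170 FPKM at P1d and 135, 134 and 133 FPKM at P7d. The P7d hearts were the lowest. *Gabarap* fell by 0.50 from P1d to P7d (standard error 0.09, limma, adjusted p = 0.00191) and by 0.28 from E18.5d to P7d (adjusted p = 0.0272). The second call was lost with median of ratios (-0.10), quantile normalization (-0.12) and no filter, and without E18.5d replicate 1 (-0.22) or 3 (-0.29) or any P7d heart (-0.28 to -0.27), while at P1d (0.22, adjusted p = 0.0698) *Gabarap* was called higher without E18.5d replicate 1 (0.28) or P1d replicate 3 (0.30) and with median of ratios (0.29). *Gabarapl2* (GATE-16) was at 33.5 ± 1.56, 38.7 ± 6.36 and 28.6 ± 2.91 FPKM by stage (SD, n = 3) and fell by 0.42 from P1d to P7d (limma, adjusted p = 0.0140), not without P7d replicate 3 (-0.35), and was called lower than at E18.5d without P1d replicate 2 (-0.22).

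The make-up of the ATG8 transcripts shifted with these changes. The 5 genes summed to 363 ± 11.9 FPKM at E18.5d, 571 ± 82.5 at P1d, then 409 ± 30.6 at P7d (SD, n = 3). *Gabarap* made up 44.9% ± 1.87 of this sum at E18.5d, 33.4% ± 0.594 at P1d, then 32.9% ± 2.26 at P7d, and *Map1lc3a* 28.1% ± 0.803, 35.5% ± 1.26 and 41.2% ± 2.78. In rank by mean FPKM, *Gabarap* (163 ± 12.1) and *Lamp1* (164 ± 5.33) led the 43 members at E18.5d without differing beyond their SD, and *Map1lc3a* led at P1d (203 ± 27.7) and P7d (169 ± 23.2), in each case within its SD of the next gene, *Gabarap* at P1d (191 ± 24.0) and *Lamp1* at P7d (155 ± 3.08). The lowest place at P1d was that of *Atg4c*, with 3.27 ± 0.363 FPKM. The ratio of *Gabarapl1* to *Gabarap* within a heart was 0.0996 to 0.142 at E18.5d, 0.178 to 0.228 at P1d and 0.136 to 0.149 at P7d.

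Among the cargo receptors, which tie ubiquitinated cargo to ATG8 proteins, *Sqstm1* and *Nbr1* were highest at P1d and *Optn* at P7d. *Sqstm1* (p62, chr11:50199366-50210827, minus strand) was at 91.1, 89.9 and 84.0 FPKM at E18.5d, 165, 227 and 139 FPKM at P1d and 111, 107 and 115 FPKM at P7d. Each P1d heart was above each P7d heart, and each P7d heart above each E18.5d heart. The rise of *Sqstm1* at P1d was 0.97 (limma, standard error 0.14 and adjusted p = 0.000590), and it fell by 0.64 to P7d (adjusted p = 0.00622). Its difference of 0.33 at P7d against E18.5d missed the threshold (limma, adjusted p = 0.0849) and passed without P1d replicate 2 or 3 (0.33) and with median of ratios (0.51). Exons of *Mrnip* (2.84 FPKM) on the other strand cover 17.3% of those of *Sqstm1*. *Nbr1*, a receptor of related domain structure, was at 47.9, 46.7 and 46.0 FPKM at E18.5d, 65.6, 65.5 and 56.1 FPKM at P1d and 53.3, 47.8 and 48.7 FPKM at P7d. The P1d hearts lay above the others. *Nbr1* rose by 0.40 at P1d (limma, adjusted p = 0.00184) and fell by 0.31 to P7d (adjusted p = 0.00728). The rise did not pass with equal column sums (0.23), nor the fall with quantile normalization (-0.18), equal column sums (-0.19) or *Xist* as a covariate (-0.27).

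*Optn* (optineurin, chr2:5020642-5064051, minus strand), which also binds ubiquitin on damaged mitochondria, did not share the P1d rise. It was at 12.4, 12.4 and 12.1 FPKM at E18.5d, 11.5, 10.4 and 12.4 FPKM at P1d and 17.1, 16.6 and 19.2 FPKM at P7d. The P7d hearts were above all others. *Optn* rose by 0.49 from E18.5d to P7d (standard error 0.08, limma, adjusted p = 0.000872) and by 0.59 from P1d to P7d (adjusted p = 0.000397), the largest rise of any member in that comparison.

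Mitophagy receptors sit in the outer mitochondrial membrane and bind ATG8 proteins directly. *Bnip3* (chr7:138890836-138909519, minus strand), a target of hypoxia-inducible factors, fell the furthest of the 43 members. It was at 81.8, 72.5 and 65.8 FPKM at E18.5d, 54.0, 70.3 and 38.4 FPKM at P1d and 29.3, 25.0 and 24.7 FPKM at P7d. P1d replicate 2 overlapped with the E18.5d hearts, and the P7d hearts were the lowest, at 0.359 times the E18.5d mean. *Bnip3* fell by 1.44 from E18.5d to P7d (standard error 0.18, limma, adjusted p = 0.000224) and by 0.98 from P1d to P7d (adjusted p = 0.00244). At P1d its difference of -0.47 did not pass (limma, adjusted p = 0.0640), and without P1d replicate 2 it was -0.67 and passed. *Bnip3l* (NIX), known for clearing mitochondria from maturing red cells, was at 40.9, 43.5 and 48.3 FPKM at E18.5d, 47.4, 64.4 and 44.1 FPKM at P1d and 55.4, 41.0 and 42.9 FPKM at P7d. The stages overlapped and no comparison passed (limma, adjusted p from 0.278 to 0.777). The erythroid markers summed to 11101, 8420 and 22749 FPKM in the E18.5d hearts, to 15705, 24733 and 12738 FPKM at P1d and to 10412, 8553 and 10225 FPKM at P7d, so that in each stage the heart with the largest erythroid sum had the highest *Bnip3l*. The match was not complete. At E18.5d replicate 1 had a larger sum than replicate 2 but less *Bnip3l*. Across stages, E18.5d replicate 3 (sum 22749) had less *Bnip3l* than P7d replicate 1 (sum 10412), 48.3 against 55.4 FPKM. The part of the erythroid cells in *Bnip3l* was not tested. *Fundc1*, a receptor on the X chromosome, was at 8.41 ± 0.778, 8.07 ± 1.20 and 8.83 ± 0.803 FPKM (SD, n = 3) and did not pass either. The ratio of *Bnip3* to *Bnip3l* was 1.36 to 2.00 within the E18.5d hearts, 0.869 to 1.14 at P1d and 0.529 to 0.610 at P7d, so that *Bnip3* was the higher of the pair in every E18.5d heart and the lower in every P7d heart.

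Transcriptional control of the pathway was examined in TFEB and TFE3, which drive lysosomal and autophagy genes, and in FOXO1 and FOXO3, which drive several autophagy genes in muscle. *Foxo3* (chr10:42181841-42276755, minus strand) was at 17.1, 17.4 and 18.1 FPKM at E18.5d, 31.6, 41.8 and 22.2 FPKM at P1d and 17.2, 16.8 and 17.2 FPKM at P7d. The hearts of E18.5d and P7d overlapped, and the P1d hearts were all higher but far apart. *Foxo3* rose by 0.79 at P1d (limma, standard error 0.17 and adjusted p = 0.004999) and fell by 0.82 to P7d (adjusted p = 0.00449). *Foxo1* was at 6.17, 6.41 and 5.94 FPKM at E18.5d, 5.98, 5.70 and 5.62 FPKM at P1d and 6.28, 6.27 and 6.36 FPKM at P7d. Its log2 changes were between -0.08 and 0.11 and did not pass (limma, adjusted p from 0.189 to 0.757), though with median of ratios *Foxo1* was called higher at P7d, by 0.18 against E18.5d and 0.21 against P1d. The ratio of *Foxo1* to *Foxo3* was 0.136 to 0.253 within the P1d hearts against 0.329 to 0.373 in the other 6.

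*Tfeb* (chr17:47737030-47792419, plus strand) was at 11.3, 11.4 and 9.77 FPKM at E18.5d, 14.02, 19.1 and 15.4 FPKM at P1d and 15.1, 15.6 and 13.9 FPKM at P7d. All postnatal hearts were above the fetal ones. *Tfeb* rose by 0.53 at P1d (limma, standard error 0.11 and adjusted p = 0.00342) and was 0.43 above E18.5d at P7d (adjusted p = 0.00957). *Tfe3*, its relative on the X chromosome, was at 9.01 ± 0.760, 8.67 ± 0.473 and 9.32 ± 0.887 FPKM (SD, n = 3) and passed in no comparison.

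The genes of the lysosomal membrane proteins LAMP1 and LAMP2 were among the most abundant members. *Lamp1* was at 167, 167 and 158 FPKM at E18.5d, 174, 173 and 162 FPKM at P1d and 155, 153 and 159 FPKM at P7d. E18.5d and P1d overlapped, and no comparison passed (limma, adjusted p from 0.0751 to 0.436), though without P1d replicate 3 *Lamp1* was called lower from P1d to P7d (-0.16). *Lamp2*, needed for the fusion of autophagosomes with lysosomes in heart muscle and encoded on the X chromosome, was at 70.1, 66.0 and 67.1 FPKM at E18.5d, 80.4, 81.7 and 76.6 FPKM at P1d and 62.4, 57.1 and 58.8 FPKM at P7d. The 3 stages did not overlap. *Lamp2* rose by 0.23 at P1d (limma, adjusted p = 0.00810), fell by 0.41 from P1d to P7d (standard error 0.06, adjusted p = 0.000388) and differed by -0.19 between P7d and E18.5d (adjusted p = 0.0199). The last call was lost with median of ratios (-0.01) and equal column sums (-0.23) and without E18.5d replicate 1 (-0.16) or P7d replicate 2 (-0.16) or 3 (-0.18), and with *Xist* as a covariate or with equal column sums the P1d difference (0.21 and 0.06) did not pass. The ratio of *Lamp1* to *Lamp2* was 2.35 to 2.53 at E18.5d, 2.12 to 2.17 at P1d and 2.48 to 2.70 at P7d.

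A ratio of 2 genes within a heart does not depend on the scale of the columns, and 12 pairs of related members were compared in this way over the 3 comparisons (36 tests). With 3 hearts against 3 the exact two-sided permutation test cannot go below 0.1, so that no ratio could pass a threshold of 0.05. The smallest p of 0.1 was reached by 10 of the 12 pairs at P1d against E18.5d, 7 at P7d against E18.5d and 8 at P7d against P1d. This p means only that the ratios of the 2 stages did not overlap. The same share among other pairs of genes is not given here, so these counts are not a trait of the members. The largest differences of the log2 ratio were those of *Bnip3* to *Bnip3l* at P7d against E18.5d (-1.54) and of *Foxo1* to *Foxo3* at P7d against P1d (0.98) and P1d against E18.5d (-0.92). The ratio of *Gabarapl2* to *Gabarap* was 0.187 to 0.235 over all hearts, with differences of the log2 ratio between -0.02 and 0.07.

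**Figure D5:**
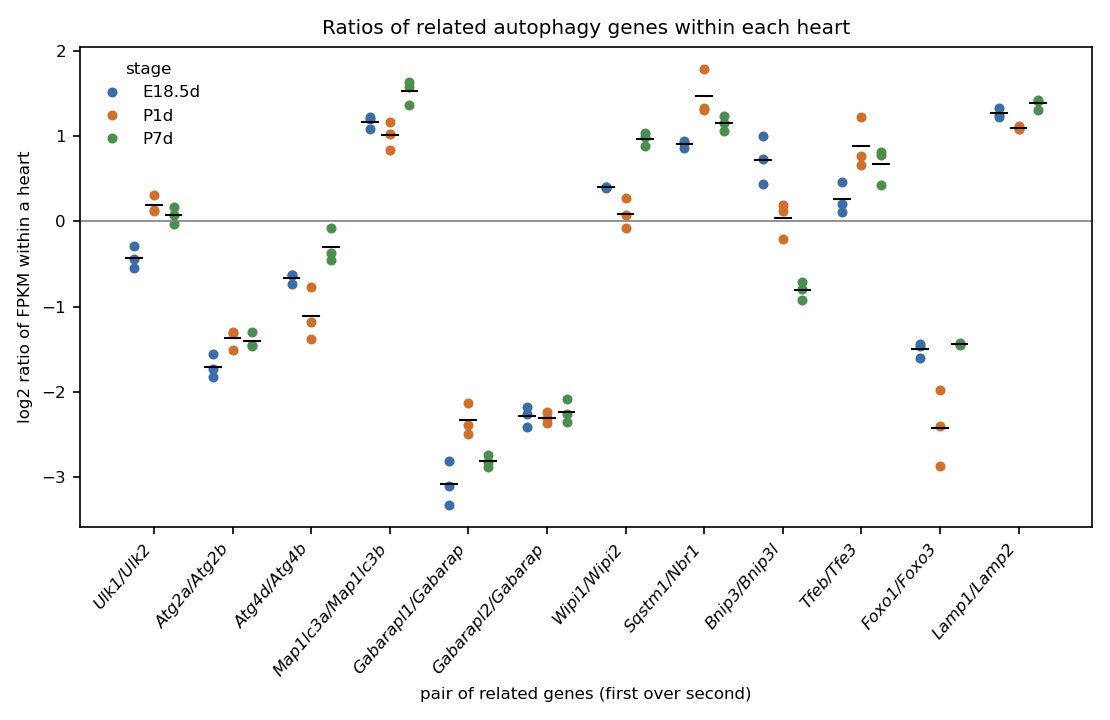
Log2 ratio of FPKM of 12 pairs of related genes within each heart (points, coloured by stage, with the mean of the 3 hearts as a black line). *Bnip3/Bnip3l* falls from stage to stage, *Foxo1/Foxo3* dips at P1d, *Wipi1/Wipi2* is highest at P7d, and *Gabarapl2/Gabarap* overlaps in all stages.

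TFEB and TFE3 bind the CLEAR element, whose core is TCACGTG, an E-box (CACGTG) with a T before it, and FOXO proteins bind GTAAACA. RefSeq promoter windows of GRCm38.p6, from 250 bases before to 50 after a start, were on hand for 36 of the 43 members and were searched on both strands. CACGTG was in the windows of 6 of the 36 members (16.7%), and of 8.09% of all genes with a window or 7.15% of all windows. TCACGTG, which is also counted under CACGTG, was in those of 4 members (11.1%, against 4.29% of genes and 3.77% of windows), namely *Lamp1*, *Atg3*, *Atg7* and *Atg14*. GTAAACA was in no member's window and in 4.05% of genes (3.65% of windows). The windows of *Map1lc3b*, *Sqstm1*, *Gabarapl1* and *Foxo3*, the members with the largest rise at P1d among those with a window, held none of these letters. The stretches that hold TCACGTG upstream of the start are shown to set its place beside the values above, with 4 matches in 80 bases at *Lamp1*, which like *Atg3* passed in no comparison. They are printed on the strand of the gene, 5′ to 3′, with the matches on either strand in capitals.
Lamp1: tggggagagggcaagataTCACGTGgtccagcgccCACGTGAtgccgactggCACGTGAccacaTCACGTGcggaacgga
Atg3: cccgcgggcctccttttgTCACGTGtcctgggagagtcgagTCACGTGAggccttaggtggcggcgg
Atg7: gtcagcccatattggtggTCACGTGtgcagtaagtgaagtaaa
Bnip3: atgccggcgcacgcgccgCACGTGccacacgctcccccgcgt
The *Lamp1* stretch is chr8:13159081-13159160 (plus strand) and ends at the base before the start, that of *Atg3* is chr16:45158716-45158782 (plus) and that of *Atg7* is chr6:114670945-114670987 (plus), inside the longer *Atg7* gene that GENCODE gives but in none of its exons. That of *Bnip3* (chr7:138909591-138909632, minus) holds CACGTG without the T and is shown for the member that fell furthest. A match is a string of letters and not a measured binding site, and the absence of one concerns these windows only.

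Further genes of the pathway, from lists that hold none of the members, were fitted in the same way. Their counts stand beside 18.4% of all genes higher and 27.6% lower at P1d against E18.5d, 12.5% and 36.9% at P7d against E18.5d, and 15.5% and 28.6% at P7d against P1d. Of 18 other genes of the machinery, 6 were higher (33.3%) and 1 lower (5.56%) at P1d, and 1 higher (5.56%) and 6 lower (33.3%) from P1d to P7d. *Wdr45* (WIPI4), the relative of *Wipi1* and *Wipi2* that binds ATG2, showed the largest rise of these at P1d, from 10.3, 8.82 and 6.27 FPKM at E18.5d to 23.1, 27.9 and 19.8 FPKM, and was at 10.4, 10.1 and 9.62 FPKM at P7d. For *Wdr45* every P1d heart thus lay above every other heart, with log2 changes of 1.39 at P1d (limma, adjusted p = 0.000140) and -1.15 from P1d to P7d (adjusted p = 0.000499). *Dapk1* (0.70) and *Tecpr1* (0.62) were also higher at P1d, *Rubcn* (Rubicon, an inhibitor of autophagosome maturation) was lower (-0.62), and *Vamp8*, a SNARE of the fusion step, fell by 0.75 from P1d to P7d. At P7d against E18.5d, 3 of the 18 were higher (16.7%) and 5 lower (27.8%), and *Dapk1* (0.81) and *Tecpr1* (0.39) led the higher ones, *Rubcn* (-0.55) and *Nrbf2* (-0.37) the lower ones.

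Of 18 other cargo and mitophagy receptors, 12 were higher (66.7%) and 2 lower (11.1%) at P1d, and 9 were lower (50%) from P1d to P7d. *Pink1*, the kinase that marks damaged mitochondria, was at 34.8, 33.9 and 30.5 FPKM at E18.5d, 92.8, 102 and 79.7 FPKM at P1d and 69.8, 63.0 and 60.6 FPKM at P7d, with log2 changes of 1.44 at P1d and 0.94 at P7d against E18.5d. The stages of *Pink1* did not overlap. *Calcoco1* (1.225) and *Retreg1* (1.02), receptors for the endoplasmic reticulum, followed at P1d. *Stbd1*, a receptor for glycogen, was at 43.8, 42.3 and 39.8 FPKM at E18.5d, 53.4, 58.6 and 59.1 FPKM at P1d and 14.6, 16.8 and 13.7 FPKM at P7d, a fall of 1.86 on the log2 scale from P1d. *Nipsnap1* (-1.04) was lower at P7d than at E18.5d as well.

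Among 25 genes of mTORC1 and AMPK control, 7 were higher (28%) and 4 lower (16%) at P1d. *Sesn1* (1.15) and *Ddit4* (1.11), inhibitors of mTORC1 signalling, were higher at P1d and lower again from P1d to P7d (-1.25 and -1.06). So was *Flcn* (folliculin), which acts on mTORC1 through the Rag GTPases, with 0.51 (limma, adjusted p = 0.0161) and -0.55 (adjusted p = 0.0125). Its first call was lost without E18.5d replicate 3 (0.49), P1d replicate 1 (0.44) or P1d replicate 2 (0.38) and with equal column sums (0.35), and both with *Xist* as a covariate. The mTORC1 activator *Rheb* (-0.29) and the subunit *Mlst8* (-0.56) were lower at P1d. *Sesn1* was at 59.99, 81.5 and 39.7 FPKM in the P1d hearts, and between 23.05 and 26.4 FPKM in all others. Of the AMPK subunits, the catalytic *Prkaa1* (-0.56) was lower and *Prkab1* (0.52) higher at P1d, and the catalytic *Prkaa2* (-0.44) was lower at P7d than at E18.5d. At P7d against E18.5d, 2 of the 25 were higher (8%) and 8 lower (32%).

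Of 43 lysosomal genes, 18 were higher (41.9%) and 4 lower (9.30%) at P1d, and 2 were higher (4.65%) and 22 lower (51.2%) from P1d to P7d, with medians of 0.18 and -0.24. *Ctsf* (1.06), *Scarb2* (0.88) and *Npc1* (0.87) rose the most at P1d, and subunits of the proton pump, *Atp6v1b2* (-0.83), *Atp6v0e* (-0.70) and *Atp6v1h* (-0.47), fell the most from E18.5d to P7d. *Scarb2*, the receptor that carries glucocerebrosidase to the lysosome, was at 41.8 to 42.7 FPKM at E18.5d, 77.7 to 79.6 at P1d and 46.4 to 49.1 at P7d. *Ctss*, an enzyme of macrophages, fell by 0.97 from P1d to P7d, and the macrophage markers summed to 61.1 to 74.3 FPKM at E18.5d, 84.3 to 126 at P1d and 79.4 to 83.7 at P7d. The markers did not move together. *C1qa*, *C1qb*, *C1qc*, *Csf1r* and *Cd163* were higher in every P1d heart than at E18.5d, and *Adgre1*, *Fcgr1* and *Mrc1* were not. *Adgre1* was at 2.90 to 3.58 FPKM at E18.5d, 2.07 to 3.06 at P1d and 3.83 to 4.27 at P7d. The part of macrophages in the values of lysosomal genes was not tested.

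Of 11 tested FOXO targets outside autophagy, 10 were higher at P1d (90.9%), and 7 fell from P1d to P7d (63.6%). *Txnip* (2.63), *Irs2* (2.01) and *Klf15* (1.02) led at P1d, and *Klf15* (-1.97), *Irs2* (-1.61) and *Txnip* (-1.05) the falls from P1d to P7d. *Fbxo32* (atrogin-1), a ubiquitin ligase of muscle, was 0.74 higher at P1d and 0.51 at P7d than at E18.5d, and *Cat* (catalase) 0.83 and 0.84. These genes answer to other factors as well, and no test of the list was made.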

How the data were processed

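RNA of 9 whole mouse hearts was sequenced, 3 replicates for each of the 3 stages, all of wild-type C57BL/6J. The RNA was extracted with Trizol and the libraries were made with the NEBNext Ultra kit. The authors deposited FPKM values per gene with 2 decimals, and the submitters' processing notes name STAR and the mouse build GRCm38 (mm10). The counting tool, the annotation and the use of strand are not given in the sources used here. FPKM values are not counts, so no count model was fitted. Libraries of 25500000 to 45750000 fragments, estimated from the steps of low values (89.6 to 93.0% of them whole within 0.2 of a fragment, against 40% by chance), limit the precision of low genes, and this limit covers counting error only.

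Genes were matched by symbol, and positions and exon overlaps by gene identifier in GENCODE M21. The 13618 genes whose 9-heart mean reached 1 FPKM entered one fit with limma 3.58.1 in R 4.3.3 on log2(FPKM + 1), 1 model of the 3 stages with a mean-variance trend, and p-values were adjusted by Benjamini-Hochberg over all genes tested, with a threshold of 0.05. A pseudocount of 1 understates the change of low genes. The fit and the depth estimate were tested on simulated data. Ratios within hearts were compared with exact two-sided permutation tests in scipy 1.17.1, with pandas 2.3.3, and drawn with matplotlib 3.10.9.

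The members and all lists were chosen with earlier results of these data known. In each comparison, the 5 largest changes in each direction among members past the threshold whose hearts do not overlap were given heart by heart, together with members taken whatever their values (*Ulk1*, *Becn1*, *Map1lc3a*, *Map1lc3b*, *Gabarapl1*, *Sqstm1*, *Bnip3*, *Bnip3l*, *Tfeb*, *Foxo1*, *Foxo3*, *Lamp1* and *Lamp2*), 20 genes in all. *Rb1cc1*, *Atg14*, *Atg7* and *Nbr1* were added heart by heart after their values were seen. From each other list, the 3 largest such changes in each direction could be named. *Atg9b* and *Bcl6*, of those lists, were under 1 FPKM on average and were not tested. Replicate numbers were not taken as pairs in the main fit. The correlation of deviations from the stage means between hearts of the same number ran from -0.055 to 0.112. Hearts of unlike number were not compared in this way, so a shared factor by number is not excluded. Alternatives tried were no filter or a mean of at least 5 FPKM, a pseudocount of 0.1, 3 other scales, no trend, 2 stages at a time, a replicate block, *Xist* as a covariate, the hearts without *Xist* alone, a further limit of 1 on the absolute log2 change, and leaving out each heart. Promoter windows were read from RefSeq (GRCm38.p6). Protein sequences were not used here.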

Additional observations from a re-analysis of the deposited data

How the results depend on the processing

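Members that passed the threshold at P1d against E18.5d (18 higher and 0 lower) numbered 10 higher and 2 lower with equal column sums, 2 higher without the hearts with *Xist* and 1 higher with an absolute log2 change of at least 1 required, and 1 was lower with quantile normalization (22.5% of all genes). At P7d against E18.5d (9 higher and 4 lower) they numbered 18 higher and 1 lower after median of ratios, 18 and 1 after quantile normalization (21.2% and 21.6% of all genes), 0 and 0 without the hearts with *Xist*, and 0 and 1 with the limit on the log2 change. At P7d against P1d (4 higher and 15 lower) they numbered 0 and 0 without the hearts with *Xist* and 0 and 0 with that limit. The shares of all genes under the limit on the log2 change are not given here, so the member counts under it have no baseline. The median log2 change of the members at P1d against E18.5d was 0.28 with median of ratios and 0.045 with equal column sums. At P7d against E18.5d it was 0.23 after median of ratios and 0.20 after quantile normalization. At P7d against P1d it was -0.086, -0.10 and -0.069 with median of ratios, quantile normalization and equal column sums, and -0.13 without the hearts with *Xist*. Without those hearts fewer samples enter the fit, and the cause of the other shifts was not tested. Leaving out 1 heart gave 14 to 21 higher (14.6 to 19.4% of all genes) and 0 to 1 lower (22.5 to 26.99%) at P1d against E18.5d, 7 to 12 (10.4 to 13.5%) and 2 to 5 (29.8 to 39.1%) at P7d against E18.5d, and 3 to 4 (12.1 to 15.3%) and 13 to 17 (22.5 to 28.1%) at P7d against P1d, with medians of 0.17 to 0.26, 0.03 to 0.08 and -0.22 to -0.13. With a replicate block, 16 were higher and 2 (*Atg4d* and *Bnip3*) lower at P1d against E18.5d (18.3% and 27.1% of all genes), 9 and 4 at P7d against E18.5d (12.5% and 36.4%), and 3 and 18 at P7d against P1d (14.98% and 28.0%). The labels do not say that the replicate numbers pair the hearts. No called change of a member turned its sign under any of these alternatives. With a pseudocount of 0.1, none of the 129 member calls moved across the threshold, and 6 did without a filter.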

Other observations

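The order of the hearts within a stage was uneven over the autophagy genes. At P7d, replicate 1 was the highest of the 3 hearts for 24 of the 43 members (55.8%), against 37.0% of all genes tested, and at E18.5d replicate 3 was the lowest for 22 (51.2%), against 44.3%. The median log2 value relative to the stage mean was 0.10 for the members and 0.02 for all genes tested in P1d replicate 2, and -0.07 and -0.01 in P1d replicate 3.

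Within the mitophagy receptors, the share of *Bnip3* in their summed FPKM was 58.1% ± 3.99 at E18.5d, 46.9% ± 4.46 at P1d, then 32.4% ± 1.06 at P7d (SD, n = 3), and that of *Bnip3l* was 35.2% ± 4.33, 45.6% ± 2.37 and 56.7% ± 2.25. Within the transcription factors, *Foxo3* made up 40.2% ± 1.85, 50.3% ± 6.92 and 35.9% ± 0.450 of the sum by stage, and *Tfeb* 24.9% ± 1.79, 26.0% ± 3.13 and 31.3% ± 1.89.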
